A study of Mus musculus with 7 samples.

Results

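The genes described here encode the core proteins of the spliceosome and the SR (serine/arginine-rich) splicing factors. They were chosen by a rule on names, which was set with earlier results of these data known. It takes every gene whose symbol begins with Snrp, with Sf3a or Sf3b and a digit, or with Prpf and a digit. It also takes Lsm1 to Lsm8 and the Srsf genes that end in a number. Genes with a pseudogene suffix were left out. The rule took 53 of 22877 genes, of which 52 are annotated as protein-coding and 1, Snrpert, as a processed pseudogene.

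RNA was sequenced from oocytes that had been freed from secondary follicles of 8-week-old C57BL/6J mice. In Mfn1-/- mice a floxed Mfn1 allele had been deleted by Cre under the Zp3 promoter, which is active in growing oocytes, so that the deletion is specific to the oocyte. WT mice served as controls. Mfn1 encodes mitofusin 1, a GTPase of the outer mitochondrial membrane that fuses mitochondria. Each library was made from 5 pooled oocytes by Smart-Seq2, a full-length cDNA method that starts from polyadenylated RNA, and the labels list 4 WT and 3 Mfn1-/- libraries.

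Most introns are removed by the spliceosome, which assembles on each intron from small nuclear ribonucleoproteins (snRNPs) built on the U1, U2, U4, U5 and U6 RNAs. The Sm proteins form a ring around every one of these RNAs except U6, which carries a ring of LSM proteins. SR proteins bind exons through RNA recognition motifs and bring the machinery to splice sites through their serine- and arginine-rich tails. Growing oocytes store much of the mRNA that is used after transcription stops, and that store is spliced before it is laid down.

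The quantity used throughout is the authors' mean normalized count of a gene in each genotype. Their table holds 1 such mean per genotype and no value for a single library, so no replicate spread or standard error can be given and no p-value could be computed from it. The authors' own test columns were not used, and every difference is a description of 2 means. Differences are log2 values of the Mfn1-/- mean over the WT mean after 0.1 was added to both, so they understate the fold of genes with low means. The scale of the normalization is not stated, so the levels of different spliceosome or SR protein genes were not compared with each other. Mfn1 itself had a mean of 0.0577 normalized counts in Mfn1-/- oocytes against 0.616 in WT, a log2 difference of -2.18, in the direction of the labels.

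The median log2 difference depended on the genes taken, and was 0.037 over all genes. The 6226 genes whose mean over the 7 libraries was 1 or more are called expressed here. Among them the median log2 difference was 0.16, and differences are therefore also given relative to it. The middle 50% of expressed genes ran from -0.12 to 0.42.

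The 53 genes had a median log2 difference of 0.21, which was 0.053 above the median of expressed genes. Their middle 50% ran from 0.02 to 0.35 and their full range from -0.69 to 1.50. The mean was higher in Mfn1-/- oocytes for 40 of the 53 genes (75.5%) and lower for 12, and Prpf8 had the same mean in both genotypes, against a higher mean in 65.4% of expressed genes and 56.7% of all genes. Relative to the median of expressed genes the split was 29 above (54.7%) and 24 below. Of the 40 higher means, 11 thus lay below the median of expressed genes. Relative to genes of like GC content, 36 of the 53 genes were higher.

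Past 2-fold, 2 of the 53 genes were higher in Mfn1-/- oocytes, Snrpb and Srsf6, and 0 were lower. Among expressed genes 5.49% were at least 2-fold higher and 3.24% at least 2-fold lower, and among all genes 4.89% and 2.76%. The 2 genes are 3.77% of the 53, a share below the background of higher genes. With the expressed-gene median subtracted, Srsf6 no longer passed 2-fold (0.86) and Snrpb did (1.34). Without these 2 genes, set aside after their values were seen, the median was 0.18.

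**Figure D1:**
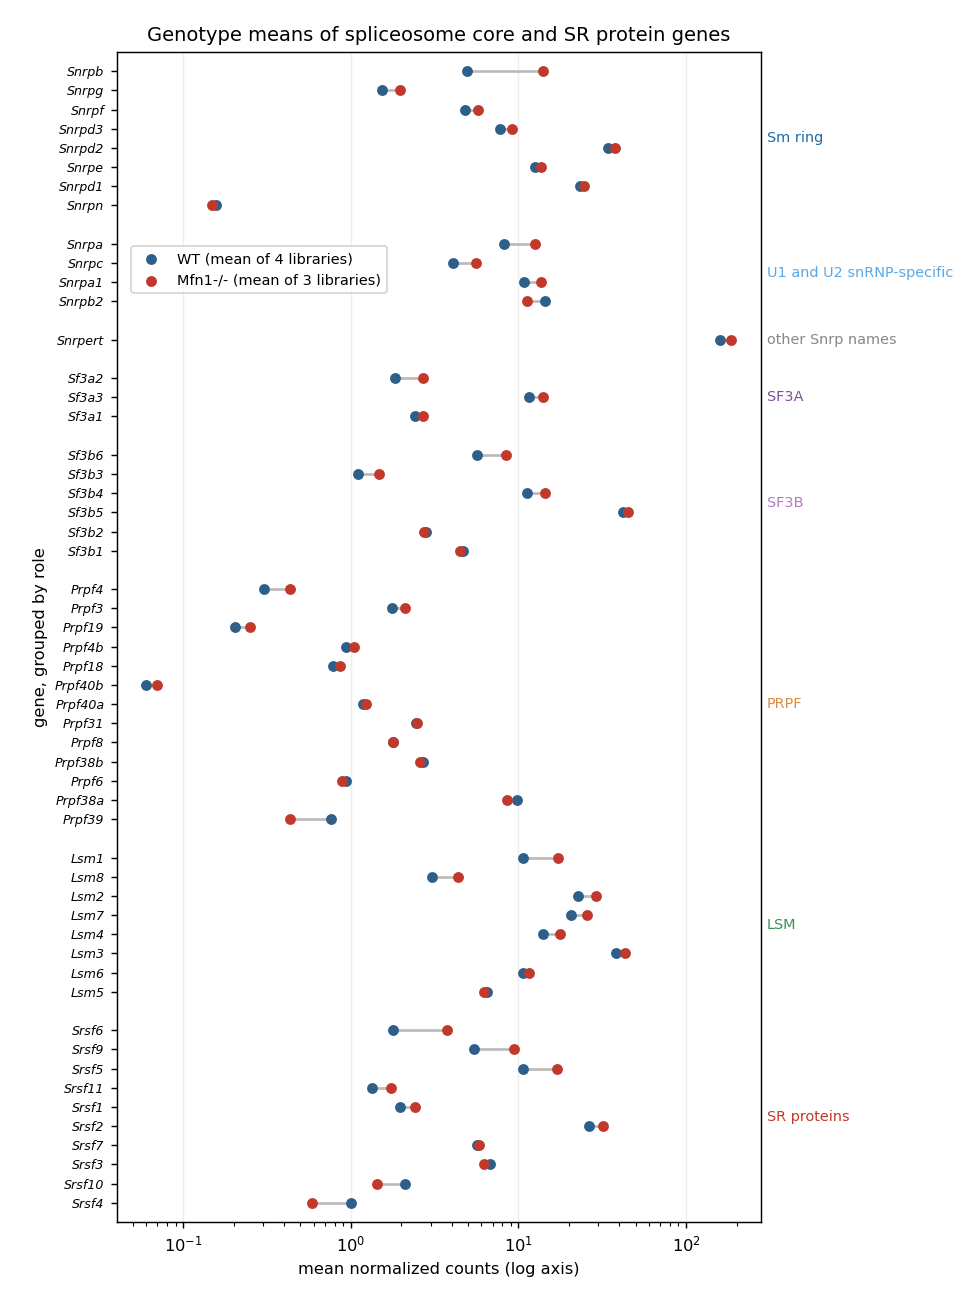
Mean normalized counts (log axis) of each of the 53 genes in WT (blue, 4 libraries) and Mfn1-/- oocytes (red, 3 libraries), grouped by role, with a grey line joining the means of a gene. The widest gap is that of Snrpb, from 4.91 to 14.1, and the scale allows a comparison of these genes within a gene only.

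Of the 53 genes, 44 were expressed by the same limit, with a median difference of 0.25, and the 9 with means under 1 had a median of 0.083. Because the table holds oocyte pools, fewer cells of a type and less RNA per cell cannot be told apart. A lower or higher mean here is a statement on the pool.

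The Sm ring has 7 positions, and the 8 Sm genes in the table fill them with 1 alternative, since SmN, the product of Snrpn, replaces SmB in brain. Snrpb, which encodes SmB, had a mean of 14.1 normalized counts in Mfn1-/- oocytes against 4.91 in WT. This log2 difference of 1.50, a 2.87-fold ratio of the means, was larger than that of 98.1% of expressed genes. Rounding of the deposited values could move it only between 1.50 and 1.51.

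The other Sm genes lay close together. Snrpg had a mean of 1.96 in Mfn1-/- oocytes against 1.54 in WT (log2 difference 0.33), Snrpf 5.74 and 4.80 (0.25), and Snrpd3 9.20 and 7.79 (0.24). These encode SmG, SmF and SmD3, and all 3 sat above the median of expressed genes. Snrpd2 had means of 37.6 and 34.2 (0.14), Snrpe 13.6 and 12.5 (0.12) and Snrpd1 24.7 and 23.2 (0.09). These last 3 were higher in Mfn1-/- oocytes as deposited and below the median of expressed genes once it was subtracted (-0.02, -0.04 and -0.07). Snrpn was at 0.149 and 0.157, a difference of -0.05. The proteins of the ring are used in equal numbers, while the means of their transcripts differed between genotypes by 0.09 to 0.33 for 6 genes and by 1.50 for Snrpb.

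Several Sm genes share long stretches of sequence with other genes, so that reads can be assigned to either. The sequence of Snrpg matched that of Gm8186 over 231 bases at 100% identity, and Gm8186 was listed at 279 and 224. Snrpe and the pseudogene Snrpert matched over 279 bases at 98.9% identity. Snrpert had means of 186 and 159, a difference of 0.23 that turned to -0.18 relative to genes of like length. For 12 of the 15 genes with a copy that has values, the copies had higher listed means than the gene in both genotypes. For these 12, Snrpd1 not among them, a value with copies summed describes mostly the copies, and each such value adds genes on a scale that may depend on length. The values were 0.32 for Snrpg, 0.22 for Snrpe, 0.35 for Snrpf, 0.27 for Snrpd1 and 0.17 for Snrpd2. The sums of Snrpd1 and Snrpe lay above the median of expressed genes and that of Snrpd2 level with it, where each gene alone was below it. No near-identical copy was found for Snrpb.

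The U1 and U2 snRNPs each carry proteins of their own beyond the ring. Snrpa encodes the U1-A protein, which binds a stem-loop of U1 RNA, and had a mean of 12.5 in Mfn1-/- oocytes against 8.24 in WT (0.60). Snrpc, for the U1-C protein, which helps U1 recognise the 5' splice site, had means of 5.57 and 4.05 (0.45). The A' and B'' proteins of U2 bind its RNA as a pair, and their genes pointed in opposite directions. Snrpa1, for A', had means of 13.6 and 10.8 (0.33), and Snrpb2, for B'', had 11.2 and 14.4 (-0.36). The difference of Snrpb2 was above that of 12.9% of expressed genes.

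SF3A and SF3B are the U2 subcomplexes that hold the branch point of the intron. All 3 SF3A genes were higher in Mfn1-/- oocytes as deposited. Relative to genes of like GC content the differences were smaller, at 0.15 for Sf3a2, 0.11 for Sf3a3 and -0.01 for Sf3a1. As deposited, Sf3a2 had means of 2.68 and 1.83 (0.53), Sf3a3 14.0 and 11.5 (0.28), and Sf3a1 2.71 and 2.41 (0.16, level with the median of expressed genes). In SF3B, Sf3b6, whose product p14 contacts the branch point adenosine, had the highest difference, with means of 8.39 and 5.62 (0.57). Sf3b3 had means of 1.48 and 1.10 (0.40), and Sf3b4 had 14.4 and 11.3 (0.35, but 0.0021 relative to genes of like GC content). The remaining 3 SF3B genes had nearly equal means in both genotypes. They were Sf3b5 at 45.0 and 42.0 (0.10), Sf3b2 at 2.73 and 2.79 (-0.03), and Sf3b1, the large scaffold subunit, at 4.46 and 4.67 (-0.06). Sf3b5 lay below the median of expressed genes (-0.06 after subtraction).

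The 13 Prpf genes encode pre-mRNA processing factors of the U4/U6.U5 tri-snRNP and of later steps. Their median difference was 0.055 and was -0.10 relative to expressed genes, 0.049 relative to genes of like GC content and 0.0028 relative to genes of like length. Prpf8, the central scaffold of the catalytic spliceosome, had a mean of 1.79 in both genotypes. The highest difference was that of Prpf4, a U4/U6 protein, with means of 0.432 and 0.304 (0.40). The lowest was that of Prpf39, a protein associated with U1, with means of 0.434 and 0.757 (-0.68). Both are low means, and with 1 added in place of 0.1 the differences were 0.14 and -0.29. Prpf4 was then no longer the highest, since Prpf3 was at 0.18. Exons of Prpf39 overlap those of Fkbp3 on the opposite strand. Smart-Seq2 libraries do not keep the strand, so reads there could come from either gene.

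LSM proteins build 2 rings that have Lsm2 to Lsm7 in common. Lsm8 completes the nuclear ring on U6 RNA, and Lsm1 takes its place in the cytoplasmic ring that promotes removal of the mRNA cap. The genes of these 2 defining subunits had the highest differences of the 8. Lsm1 had a mean of 17.2 in Mfn1-/- oocytes against 10.7 in WT (0.68), and Lsm8 had 4.33 and 3.04 (0.50). The 6 shared subunits had a median difference of 0.25. Lsm2 had means of 29.1 and 22.6 (0.36), Lsm7 25.8 and 20.5 (0.33), and Lsm4 17.6 and 14.1 (0.32). Relative to genes of like GC content Lsm7 was at 0.07 and Lsm4 at -0.06, while Lsm8 was at 0.61 and Lsm5, lower as listed, at 0.04. The median of the 8 was then 0.052 in place of 0.32. Lsm3 had means of 43.3 and 38.3 (0.18), and Lsm6 had 11.6 and 10.7 (0.12, below the median of expressed genes). Lsm5 was listed at 6.20 and 6.52 (-0.07). Lsm5, Lsm6 and Lsm7 have near-identical pseudogene copies with higher listed means than their own, at 93.0 and 85.8 for those of Lsm5, 19.6 and 14.6 for Lsm6, and 92.0 and 62.3 for Lsm7. The sums of gene and copies differed by 0.10, 0.30 and 0.51, close to the copies alone for Lsm5 (0.12) and Lsm7 (0.56), so they do not give the direction of Lsm5 itself. Of the 15 genes with a copy that has values, the sum had the sign of the gene alone for 13, and the opposite sign for Lsm5 and Srsf3.

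**Figure D2:**
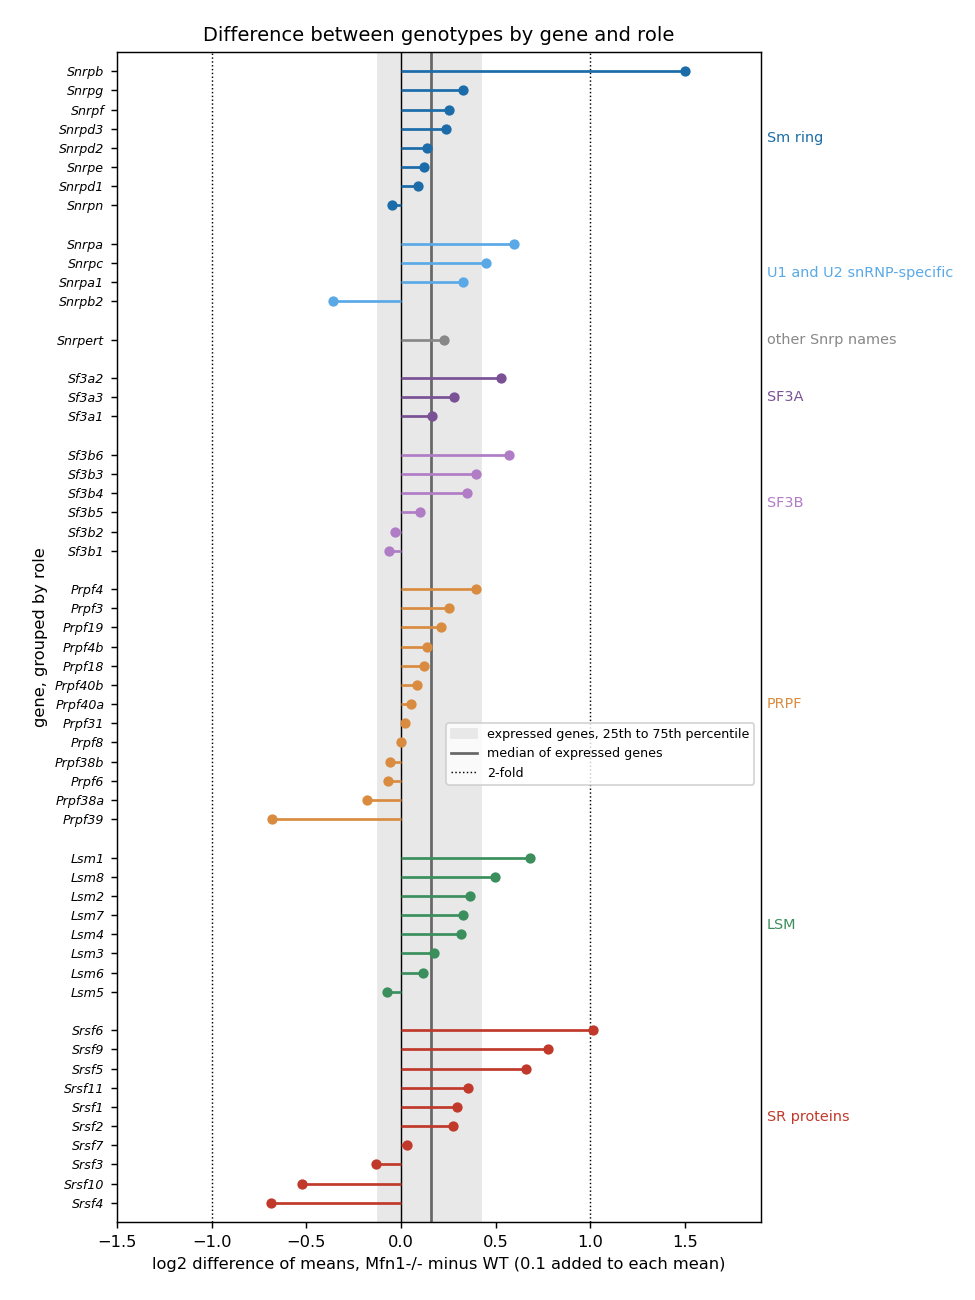
Log2 difference of the means, Mfn1-/- minus WT, for each of the 53 genes, coloured by role. The grey band is the middle 50% of expressed genes, -0.12 to 0.42, the grey line their median of 0.16, and the dotted lines mark 2-fold, which Snrpb (1.50) and Srsf6 (1.02) pass and which Srsf6 does not pass with the expressed-gene median subtracted (0.86).

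The differences of the 10 SR protein genes had a middle 50% from -0.09 to 0.59. They ran from -0.69 to 1.02, and 7 of 10 were higher in Mfn1-/- oocytes (70%, against 65.4% of expressed genes). Of the 7, 6 lay above the median of expressed genes. Close relatives within the family did not always share a direction. Srsf4, Srsf5 and Srsf6 encode SRp75, SRp40 and SRp55, which share a pair of RNA recognition motifs of like sequence. Srsf6 had a mean of 3.72 in Mfn1-/- oocytes against 1.79 in WT (1.02, or 0.76 with 1 added in place of 0.1, which no longer passes 2-fold). Srsf5 had means of 17.0 and 10.7 (0.66). Srsf4, for the longest protein of the 3, had means of 0.583 and 1.00 (-0.69, and -0.34 with 1 added in place of 0.1). Exons of Srsf4 overlap those of Gm12992 on the opposite strand.

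Srsf1 and Srsf9 encode another related pair, SF2/ASF and SRp30c, and both were higher in Mfn1-/- oocytes. Srsf9 had means of 9.41 and 5.45 (0.78), and Srsf1 had 2.42 and 1.95 (0.30). Srsf3 and Srsf7, the smallest SR protein and its zinc-knuckle relative, act in mRNA export as well as splicing. Their means were 6.19 and 6.78 (-0.13) for Srsf3 and 5.81 and 5.68 (0.03) for Srsf7, and both lay below the median of expressed genes. The copies of Srsf3, listed at 51.2 and 47.0 together, make up 89.2% and 87.4% of the sum of gene and copies, whose difference of 0.09 is thus mostly that of the copies (0.12).

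Srsf2, for SC35, had means of 32.0 and 26.4 (0.28), and Srsf11 had 1.74 and 1.34 (0.35). Srsf10 encodes SRp38, which represses splicing when it is dephosphorylated. It had means of 1.43 and 2.10 (-0.52), and its near-identical copies were listed at 13.2 and 16.9 (-0.35). Many SR genes carry an alternative exon whose inclusion sends the transcript to decay, and gene-level means do not separate such transcripts from those that encode the protein.

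**Figure D3:**
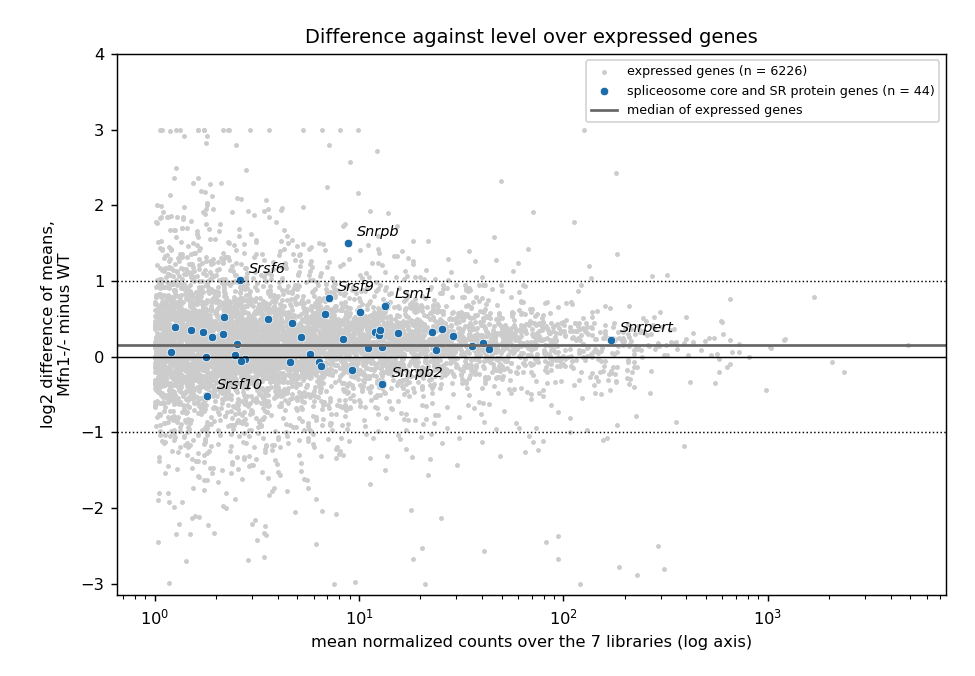
Log2 difference, Mfn1-/- minus WT, against mean normalized counts over the 7 libraries (log axis) for 6226 expressed genes (grey) and the 44 expressed spliceosome core and SR protein genes (blue), with 21 grey genes beyond 3 in either direction drawn at the edge. Most blue points lie near the median line of 0.16, Snrpb lies at 1.50, and Srsf6 lies just above the 2-fold line, which it does not pass with the expressed-gene median subtracted.

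The promoters of Srsf6, the highest SR gene, and of Srsf4 and Srsf10, the lowest pair, are shown because these genes lay at opposite ends of the family. The windows come from the RefSeq promoter set on build GRCm38.p6, which held 44 of the 53 genes among 27025 genes with a window. The Srsf6 window is chr2:162931258-162931557, the Srsf4 window chr4:131873387-131873686 and the Srsf10 window chr4:135855821-135856120, all on the plus strand, 5' to 3' and 300 bases long. Of the 44 windows, 37 hold the gene start of GENCODE M21, 6 lie wholly after it, that of Srsf10 among them, and 1 lies before it. Capitals mark matches on either strand to any of 6 motifs, which were chosen after these windows had been read. They are the palindrome CTCGCGAG, the cAMP response element TGACGTCA, the ETS core CCGGAAG, the box CCAAT bound by NF-Y, the core of the TATA box written as TATAAA, and the E-box CACGTG.
Srsf6: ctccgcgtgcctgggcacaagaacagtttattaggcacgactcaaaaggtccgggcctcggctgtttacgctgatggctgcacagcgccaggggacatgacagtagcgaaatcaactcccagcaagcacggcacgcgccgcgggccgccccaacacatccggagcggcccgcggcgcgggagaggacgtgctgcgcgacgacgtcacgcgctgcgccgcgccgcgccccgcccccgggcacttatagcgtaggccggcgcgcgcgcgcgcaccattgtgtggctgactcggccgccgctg
Srsf4: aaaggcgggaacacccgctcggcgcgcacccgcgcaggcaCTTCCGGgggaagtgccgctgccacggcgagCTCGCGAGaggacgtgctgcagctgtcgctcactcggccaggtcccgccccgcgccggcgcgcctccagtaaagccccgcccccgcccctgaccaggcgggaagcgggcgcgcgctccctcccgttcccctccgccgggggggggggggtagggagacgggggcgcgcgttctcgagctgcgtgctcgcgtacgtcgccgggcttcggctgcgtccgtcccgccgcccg
Srsf10: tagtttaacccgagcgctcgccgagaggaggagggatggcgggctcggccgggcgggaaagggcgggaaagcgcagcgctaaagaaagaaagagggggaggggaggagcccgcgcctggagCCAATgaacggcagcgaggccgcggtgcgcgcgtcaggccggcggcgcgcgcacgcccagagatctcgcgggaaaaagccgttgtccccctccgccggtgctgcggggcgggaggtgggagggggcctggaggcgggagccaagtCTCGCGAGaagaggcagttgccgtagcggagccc

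The palindrome CTCGCGAG was found in the windows of Srsf4 and Srsf10 and of no other of the 44 genes (4.55%), against 0.958% of all windows and 2.31% of those of expressed genes. These shares describe a motif picked from these same windows. None of the 6 motifs was found in the Srsf6 window. CCGGAAG, the core recognised by ETS factors, was in 18 of the 44 windows (40.9%), against 9.12% of all windows and 24% of those of 3850 expressed genes. The 18 genes with it had a median difference of 0.19 and the 26 without it 0.21, and no test was run on this or the other splits by motif.

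CCAAT was in 43.2% of the 44 windows, against 37.9% of all windows and 42.1% of those of expressed genes. The 19 genes with it had a median difference of 0.083 and the 25 without it 0.28. TATAAA was in 9.09%, below the 14.2% of all windows and above the 7.90% of expressed genes. CACGTG was also in 9.09%, above the 7.24% of all windows and below the 11% of expressed genes. TGACGTCA, found in Snrpa and Snrpg, was in 4.55%, against 1.88% of all windows and 4.16% of those of expressed genes. The last 3 motifs and CTCGCGAG were in at most 4 of the 44 windows each, so medians by these motifs are not given. A match is a description of the letters in a window and not a site of binding.

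The 53 genes lie on 16 chromosomes. In GENCODE M21 Snrpb occupies chr2:130171414-130179403 on the minus strand, Srsf6 chr2:162931528-162937121 on the plus strand, and Srsf4 chr4:131873617-131901706 and Srsf10 chr4:135855747-135869908 on the same strand, all on GRCm38. Differences over expressed genes followed base composition and length. From the lowest to the highest quartile of GC content of the longest transcript, the median difference of expressed genes went from -0.0084 to 0.31. From the shortest to the longest quartile of exon length it went from 0.24 to 0.059. Of the 53 genes, 22 fell in the lowest GC quartile, with a median of 0.11, and 22 in the longest quartile, with a median of 0.10. After the median of genes of like GC content was subtracted, the 53 genes had a median of 0.065 and Snrpb a difference of 1.27, while Srsf6 was at 0.96 and below 2-fold.

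Beside the 53 genes stand 8 further lists, 144 genes with values in all. Of these, 7 lists hold genes of splicing or of snRNPs and 1 holds 11 decapping partners of the cytoplasmic Lsm1 ring. Their median difference was 0.09, with 92 higher (63.9%, against 65.4% of expressed genes) and 51 lower. Past 2-fold, 3 were higher in Mfn1-/- oocytes (2.08%, against 5.49% of expressed genes) and 0 were lower. The count of 3 became 7 with no pseudocount, 6 with one of 0.01, and 0 with one of 1 or relative to the median of expressed genes. Without the decapping partners, 133 genes had a median of 0.10, with 87 higher, 45 lower and 3 past 2-fold. Relative to the median of expressed genes, every list median over all its genes was below 0 other than that of the exon junction complex (0.040). Low means are part of these medians, and over genes with a mean of at least 1 splice site recognition lay above that median. Of 24 snRNP proteins whose symbols fall outside the rule, 14 were higher (58.3%) and 10 lower, with a median of 0.03. The lowest was Snrnp70, for U1-70K, the third protein specific to U1, with means of 1.40 and 2.59 (-0.84), against the higher means of Snrpa and Snrpc. With the expressed-gene median subtracted, Snrnp70 reached a mean 2-fold lower. The highest of the list was Snrnp35, its counterpart in the minor spliceosome, with means of 0.262 and 0.127 (0.67). Snrnp35 passed 2-fold with no pseudocount (1.04) and was at 0.16 with 1 added. It was not the highest with 1 added, nor relative to genes of like GC content or of like length.

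Of 16 genes listed for snRNP assembly, 2 were at least 2-fold higher (12.5%, against 5.49% of expressed and 4.89% of all genes). With 1 added in place of 0.1, 0 were. Prmt5, the methyltransferase that modifies the tails of SmB, SmD1 and SmD3, had a mean of 2.09 in Mfn1-/- oocytes against 0.924 in WT (1.10). Gemin2, the subunit of the SMN complex that holds the Sm proteins before they close on RNA, had means of 1.71 and 0.751 (1.09). Relative to the median of expressed genes the 2 lay at 0.94 and 0.93, short of 2-fold, and with 1 added at 0.68 and 0.63. With no pseudocount the count was 3, since Coil, named after its values were seen, then passed as well (1.15). The list as a whole had a median of 0.13, with 10 of 16 genes higher (62.5%, against 65.4% of expressed genes) and 5 lower. That median was 0.034 over genes with a mean of at least 1 and -0.12 relative to genes of like GC content. Lowest was Lsm11, named after its values were seen, at 0.921 and 1.42 (-0.57). Lsm11, like Lsm10 of the same list, encodes a ring subunit of the U7 snRNP and not a splicing factor.

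The 17 genes of splice site recognition had a median of 0.13. Over those with a mean of at least 1 it was 0.30, above the 0.16 of all expressed genes. Of the 17, 12 were higher (70.6%, against 65.4% of expressed genes) and 5 lower, and 1 was at least 2-fold higher (5.88%, near the 5.49% of expressed genes). That gene was Zrsr1, a relative of the small U2AF subunit, with means of 0.302 and 0.0981 (1.02, but 0.86 after subtraction and 0.25 with 1 added). The lowest of the list was Tial1, an RNA-binding protein that acts near 5' splice sites, with means of 0.353 and 0.466 (-0.32). Among proteins of the Prp19 complex and the catalytic steps, 17 of 25 genes were higher (68%) and 8 lower, with a median of 0.11. They ran from Ppil1, a spliceosomal peptidyl-prolyl isomerase, at 1.20 and 0.701 (0.70), to Ppie, another, at 2.61 and 3.40 (-0.37).

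SR-related proteins and the kinases that phosphorylate SR proteins had 14 of 20 genes higher (70%, against 65.4% of expressed genes) and 6 lower. Their median was 0.13. Rnps1, an SR-related protein of the exon junction, was highest at 8.82 and 5.25 (0.74), and Scaf1 lowest at 0.521 and 0.721 (-0.40). Among hnRNP proteins, which often counter SR proteins at exons, 16 of 26 were higher (61.5%) and 10 lower, with a median of 0.12. Hnrnpab was highest at 10.1 and 5.79 (0.79), and Hnrnpa3 lowest at 1.92 and 3.05 (-0.64).

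Proteins that work with the Lsm1 ring in decapping had a median of -0.04, with 5 of 11 genes higher and 6 lower, beside the 0.68 of Lsm1 itself. Their median was -0.28 over genes with a mean of at least 1. Relative to genes of like GC content it was -0.31, and Lsm1 was at 0.54. Edc3, an enhancer of decapping, was highest at 0.147 and 0.0654 (0.58), and Dcp2, the decapping enzyme, lowest at 0.619 and 0.919 (-0.50). With no pseudocount Edc3 passed 2-fold (1.17). With 1 added in place of 0.1 Edc3 was at 0.11 and no longer highest. Of the 5 exon junction complex genes 4 were higher (80%, against 65.4% of expressed genes) and 1 lower, with a median of 0.20. Casc3 was highest at 0.193 and 0.0876 (0.64), and Magohb lowest at 2.08 and 2.71 (-0.37). Casc3 also passed 2-fold with no pseudocount (1.14), and with 1 added was at 0.13 and no longer highest.

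**Figure D4:**
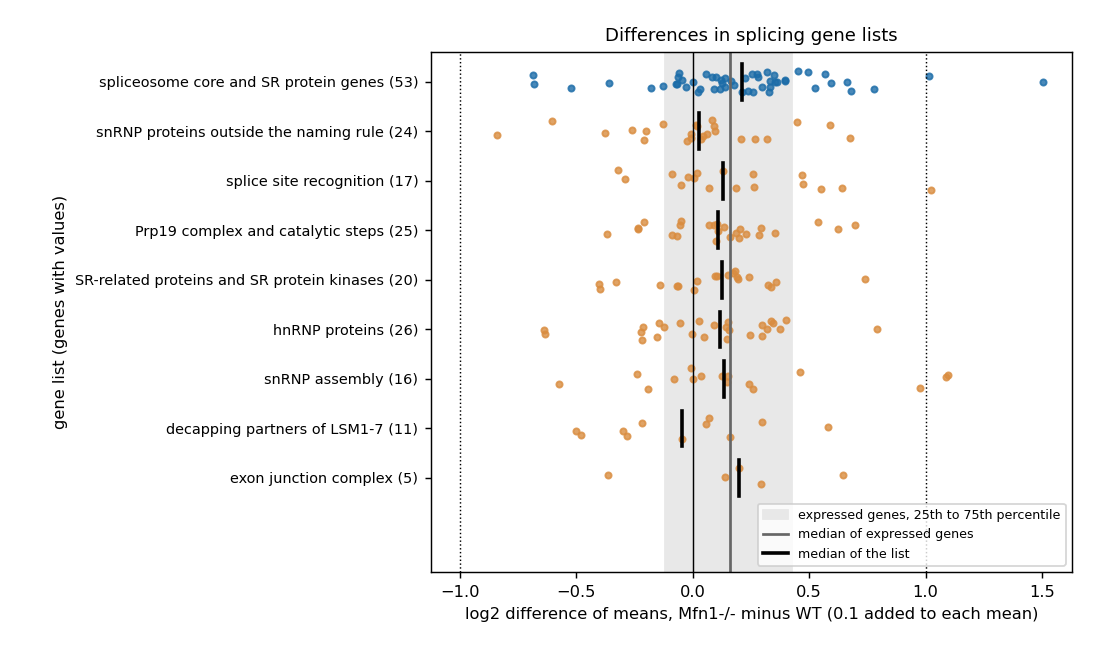
Log2 difference, Mfn1-/- minus WT, of each gene (points) in the 53 spliceosome core and SR protein genes (blue) and in the 8 other lists (orange), with the number of genes in brackets, black bars at list medians, the grey band at -0.12 to 0.42 and the grey line at 0.16 for expressed genes. The medians run from -0.04 for decapping partners to 0.21 for the 53 genes, and every list median other than those of the 53 genes and of the exon junction complex lies below the grey line.

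Markers of the cells that could be in the pools were read beside these results. All 18 oocyte markers had values, 12 of them higher in Mfn1-/- oocytes and 6 lower, with a median difference of 0.18. Past 2-fold was only Sohlh1, named after its values were seen, at 3.68 and 0.105 (4.20), and the other 17 ran from -0.39 to 0.90. The means of all 18 summed to 5055 in Mfn1-/- oocytes against 4699 in WT, and the most abundant was Ooep, a component of the subcortical maternal complex, at 1310 and 1120. Of 15 granulosa cell markers 13 had values, summing to 3.33 and 2.97, with Inha the most abundant at 1.87 and 0.954. Without Inha the sums turned to 1.46 and 2.02, and of the 13 markers 10 were lower in Mfn1-/- oocytes and 3 higher, with a median difference of -0.11. Of 9 theca and stromal markers 6 had values, summing to 0.223 and 0.221, with Star the most abundant at 0.0845 and 0.105. Of 9 blood, immune and endothelial markers 3 had values, summing to 7.76 and 0.880, almost all of it Cd68 at 7.58 and 0.672, and 0.178 and 0.208 without Cd68. These sums and ranks use the deposited scale, whose dependence on gene length is not known. The part of these markers in the differences of the spliceosome and SR protein genes was not tested.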

How the data were processed

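RNA-seq libraries of 7 oocyte pools were grouped by their labels into 4 WT and 3 Mfn1-/-. The design text gives 3 per group, and for 100% of genes the deposited sum over libraries lay within 1% of the sum of the genotype means weighted by 3 (Mfn1-/-) and 4 (WT). Per the paper's methods and the submitters' processing notes, reads were trimmed with cutadapt and aligned with STAR to GRCm38. The signal values deposited by the authors are mean normalized counts per genotype and a sum of normalized counts over libraries. The method of normalization, the annotation and the use of strand in counting are not given in the sources used here. Smart-Seq2 libraries do not keep the strand. The summed means were 142576 for Mfn1-/- and 130160 for WT, the lowest mean listed was 0.01, and depth per library is unknown. The deposited table also holds columns of the authors' own comparison (p-value, false discovery rate, ratio and fold change), which were not used. Unused columns with values of single samples numbered 0.

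Planned limma tests need values per library and could not be fitted. Log2 differences used a pseudocount of 0.1, expressed genes a mean of at least 1 over libraries and called genes a 2-fold difference. Exon length, GC content and position came from GENCODE M21, in which 21895 of 22876 gene names had 1 gene, the 53 genes included. GC content is that of the longest transcript of a gene. Near-identical copies were matches of at least 75 bases and 95% identity in blastn 2.17.0 that cover 50% of the other transcript. They were found for 18 of the 53 genes, 15 of them with values for a copy. Exons of 14 of the 53 genes overlap another gene on the opposite strand and of 4 on the same strand, and their values are uncertain to that extent. The 14 are Prpf4b, Prpf31, Prpf39, Sf3a2, Sf3b2, Sf3b3, Sf3b4, Snrpa, Snrpd3, Snrpf, Snrpn, Srsf1, Srsf2 and Srsf4. Promoter windows were the first listed per gene, and 37 of 44 hold the gene start of GENCODE M21. Calculations used Python 3.11.15, numpy 2.4.6, pandas 2.3.3 and matplotlib 3.10.9, and were tested on simulated data.

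The members and lists were chosen with earlier results of these data known. Genes named were Mfn1, members past 2-fold, all members of roles with up to 8 members and the extremes of other roles, and, in each other list, genes past 2-fold with a mean of at least 1 or else the highest and lowest, and the most abundant gene of each marker list. Prpf8, Coil, Lsm11, Sohlh1 and the other SR genes were named after their values were seen. Alternatives were other pseudocounts, centring, a filter on low means and, chosen after seeing the data, GC and length centring, equal summed means, the handling of copies and of Snrpert, and the lists without decapping partners.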

Additional observations from a re-analysis of the deposited data

How the results depend on the processing

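No paired analysis was possible because the deposited values are 1 mean per genotype, and for the same reason leaving out each replicate in turn and the replicate block could not be run. A difference in a median of 0.1 log2 or more was counted as moved, a limit that stands in for the unknown spread between replicates. The count of members past 2-fold was 1 in place of 2, without Srsf6, with a pseudocount of 1 and under each of the 4 other scalings below, and the count lower stayed at 0 under every setting tried. Of 386 single-member values under alternatives, 192 moved by less than 0.1, 189 by more with no loss of a 2-fold call, 5, all of Srsf6, no longer passed 2-fold, and 0 members newly passed it. In the 8 other lists together the count higher past 2-fold was 7 with no pseudocount, 6 with one of 0.01 and 0 with one of 1, in place of 3. Mfn1 was at -3.42 with no pseudocount, -3.21 with one of 0.01 and -0.61 with one of 1. With only genes of mean at least 1, medians were 0.30 for splice site recognition, 0.034 for snRNP assembly and -0.28 for decapping partners.

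With the expressed-gene median subtracted, values were 0.053 for all members, 0.028 for Sm ring, 0.23 for U1 and U2 proteins, 0.067 for Snrpert, 0.12 for SF3A, 0.064 for SF3B, -0.10 for PRPF, 0.16 for LSM, 0.13 for SR proteins, -0.13 for other snRNP proteins, -0.030 for splice site recognition, -0.052 for Prp19 complex and catalytic genes, -0.032 for SR-related proteins and kinases, -0.041 for hnRNP proteins, -0.024 for snRNP assembly, -0.20 for decapping partners, 0.040 for exon junction complex and -2.34 for Mfn1, each lower by construction. The members with a positive difference then numbered 29 in place of 40. With the settings chosen after seeing the data, equal summed means gave 0.095 for all members, 0.056 for Sm ring, 0.26 for U1 and U2 proteins, 0.095 for Snrpert, 0.15 for SF3A, 0.092 for SF3B, -0.066 for PRPF, 0.19 for LSM, 0.16 for SR proteins, 0.0050 for splice site recognition, -0.018 for Prp19 complex and catalytic genes, -0.0012 for SR-related proteins and kinases, 0.017 for hnRNP proteins, 0.0064 for snRNP assembly, -0.17 for decapping partners and 0.068 for exon junction complex, with 33 members higher. Subtraction of the median of genes of like GC content gave 0.065 for all members, 0.28 for U1 and U2 proteins, 0.11 for SF3A, 0.017 for SF3B, 0.052 for LSM, -0.21 for other snRNP proteins, -0.042 for Prp19 complex and catalytic genes, -0.014 for SR-related proteins and kinases, -0.026 for hnRNP proteins, -0.12 for snRNP assembly, -0.31 for decapping partners and -2.32 for Mfn1, with 36 members higher. Subtraction by length gave 0.10 for all members, 0.031 for Sm ring, -0.18 for Snrpert, 0.12 for SF3A, 0.042 for SF3B, 0.16 for LSM, 0.18 for SR proteins, -0.094 for other snRNP proteins, -0.036 for snRNP assembly and -0.0096 for exon junction complex, with 32 members higher. Without members that have near-identical copies, medians were 0.87 for Sm ring, -0.015 for U1 and U2 proteins and 0.099 for SF3B, since few genes of those roles were then left. For the GC and length settings the cause was not tested.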
